A study of Mus musculus with 16 samples.

Results

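The heat shock proteins, their DNAJ cochaperones and a few of their regulators were followed in cultured explants of mouse epicardium with and without blebbistatin. A gene was taken as a member when its symbol began with Hspa, Hspb, Hspd, Hspe, Hsph, Hsp90 or Dnaj, or when it was Cryab, Hsf1, Hsf2, Bag3, St13 or Stip1. The muscle gene Hspb7 was left out. This gave 70 members among the 15805 genes of the table, and all 70 were tested. The rule uses no measured value, and 2 of the members are processed pseudogenes, Hspd1-ps3 and Dnajc19-ps.

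RNA was sequenced from 16 primary epicardial explants of C57BL6 mice grown on 1% collagen gel, of which 8 were treated with blebbistatin and 8 were untreated controls. Blebbistatin inhibits myosin II, which pulls on actin filaments, and the labels name the nonmuscle form as its target. Its dose is labelled 20, but the labels give both mM and mm as the unit, and the true concentration is therefore unknown here. The sources used here do not say if solvent was added to the controls, how old the animals were, or whether each explant came from a separate animal. If they did not, the p-values measure only the spread between these samples, which may in part be technical. Cultured epicardial cells can change type, and an explant can hold other cells of the heart. In bulk RNA such as this, fewer cells of a type and less RNA per cell cannot be told apart.

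Chaperones bind unfolded proteins and help them to fold, to cross membranes or to be degraded. Proteins of the HSP70 class hold and release a client in a cycle of ATP hydrolysis, in which DNAJ proteins deliver the client and start hydrolysis and HSP110 proteins exchange the nucleotide. HSP90 receives clients such as kinases and steroid receptors from HSP70 through the adaptor encoded by Stip1, and it also folds the myosin motor together with UNC45. Small heat shock proteins bind unfolded proteins without ATP and are abundant in muscle, where they protect the cytoskeleton. The cytosol and nucleus, the endoplasmic reticulum (ER) and the mitochondria each have their own set. Stress in the cytosol raises chaperone genes through the transcription factor HSF1, which binds heat shock elements, and stress in the ER does so through ATF6, which acts at ER stress response elements.

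Matches to the letters of both kinds of element were found in promoters of members. They are shown because the factors of the cytosolic and of the ER stress response act at such elements. RefSeq windows of 300 bases, from 250 before to 50 after the start of transcription on GRCm38.p6, were at hand for 53 of the 70 members. These 53 members had 70 windows, since some had more than 1. The ER stress response element was searched on both strands as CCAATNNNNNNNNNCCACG, reverse complement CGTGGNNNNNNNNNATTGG. It was in 0.119% of all 32851 windows and in 3 of the 70 member windows, those of Dnajc3, Hsp90b1 and Hspa5, all genes of ER proteins. Each stretch below has 30 bases, with the match in capitals.
Hspa5, chr2:34772019-34772048, plus strand: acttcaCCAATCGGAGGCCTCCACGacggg
Hsp90b1, chr10:86705633-86705662, minus strand: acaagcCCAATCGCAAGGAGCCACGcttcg
Hsp90b1, chr10:86705528-86705557, minus strand: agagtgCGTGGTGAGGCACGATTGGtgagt
Dnajc3, chr14:118937821-118937850, plus strand: ccacaaCCAATCAGCGCCAACCACGacccg

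The matches of Hsp90b1 lie on opposite strands of a single promoter, of which 185 bases are given on the minus strand so that their spacing can be seen, from 250 to 66 bases before the start.
Hsp90b1, chr10:86705510-86705694, minus strand: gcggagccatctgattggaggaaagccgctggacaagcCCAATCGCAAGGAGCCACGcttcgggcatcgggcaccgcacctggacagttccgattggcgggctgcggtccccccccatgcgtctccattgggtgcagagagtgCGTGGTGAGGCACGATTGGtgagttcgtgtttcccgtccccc

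A heat shock element of 3 units was searched as GAANNTTCNNGAA and its reverse complement TTCNNGAANNTTC. It was in 0.603% of all windows and in 6 of the 70 member windows, from 4 members, Dnajb6, Hspd1, Hspe1 and Hsph1. Hspd1 and Hspe1 are transcribed away from each other from RefSeq starts 216 bases apart, so their windows overlap. Their matches are the same bases, read from either gene.
Hspe1, chr1:55088053-55088082, plus strand: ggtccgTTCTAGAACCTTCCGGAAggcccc
Hsph1, chr5:149636287-149636316, minus strand: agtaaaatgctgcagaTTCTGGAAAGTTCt
Dnajb6, chr5:29735843-29735872, plus strand: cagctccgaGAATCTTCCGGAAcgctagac

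The shorter form with 2 units, GAANNTTC, reads the same on both strands and overlaps the longer element. It was in 7.86% of all windows and in 15 of the 70 member windows, from 13 members. Among them were the strongly heat-inducible pair Hspa1a and Hspa1b, whose stretches are identical. The other order of the units, TTCNNGAA, was in 8.52% of all windows and in 8 of the 70 member windows, from 6 members. A match describes letters, not a bound site or a response to stress, and no match says only that these letters were not in the window. All 30 bases of the Hspa5, Hspe1, Hsph1 and Dnajb6 stretches lie in annotated exons, and the Hsph1 match lies after the start.
Hspa1a, chr17:34972242-34972271, minus strand: cgaaactgctgGAAGATTCctggccccaag
Hspa1b, chr17:34959324-34959353, minus strand: cgaaactgctgGAAGATTCctggccccaag

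Total counts ran from 20176386 to 89620195 in the blebbistatin libraries and from 27065611 to 60321622 in the controls, so 1 CPM (counts scaled to a fixed library total) was 20.2 counts in the shallowest library. The members together took 0.601 to 0.907% of the counts with blebbistatin (median 0.764%) and 0.763 to 1.05% in controls (median 0.855%). Genes of the mitochondrial genome took 16.8 to 25.5% and 13.8 to 18.9%. The epicardial label was checked against 10 marker genes, all measured, whose summed level was 854 to 2512 CPM with blebbistatin and 1179 to 2859 CPM in controls. The 8 smooth muscle markers summed to 470 to 1081 CPM with blebbistatin and 1031 to 2142 CPM in controls, and 2 of them passed the test as lower. Of 16 cardiomyocyte markers 9 were measured, summing to 713 to 1177 CPM and 441 to 947 CPM with 1 higher, while Myh6 reached at most 8.03 CPM in any library. The 12 macrophage markers ranged widely in both groups, from 285 to 3655 CPM with blebbistatin and from 316 to 4223 CPM in controls, and 6 of 10 endothelial markers summed to 18.9 to 54.6 and 32.7 to 89.8 CPM.

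Per kilobase of exons, the chaperone pool of these explants was led by cytosolic HSP90. Levels below are CPM per kilobase in controls, as mean ± SD over 8 libraries. Each gene's length is that of all its GENCODE exons merged. This can exceed the length of any transcript, and it then lowers the gene's place. Hsp90ab1, the constitutive cytosolic HSP90, stood first at 812 ± 93.6, far above the 191 ± 30.4 of Hsp90b1, the HSP90 of the ER. The small heat shock protein gene Cryab, for alpha B-crystallin, followed at 174 ± 51.6 and did not stand apart from Hsp90b1 beyond its spread. Next came Hspd1, for the mitochondrial chaperonin HSP60, at 136 ± 27.8, Hsp90aa1, the stress-inducible HSP90, at 115 ± 24.4, and Hspa5, for the ER HSP70 called BiP, at 107 ± 18.7. These 3 overlapped within their SD. Hspb1 at 82.4 ± 27.4, Hspa4 at 82.0 ± 18.6, the constitutive HSP70 gene Hspa8 at 68.0 ± 7.37 and the mitochondrial HSP70 gene Hspa9 at 65.2 ± 14.0 followed without separation.

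Genes of the HSP90, HSP70, HSP110, chaperonin and small heat shock protein classes thus filled the first 10 places, and the inducible HSP70 genes stood near the bottom. Hspa1b stood at 1.31 ± 0.613 and Hspa1a at 1.12 ± 0.474 CPM per kilobase, in places 60 and 62 of 70. Per kilobase, the highest DNAJ member was Dnaja2, for a partner of cytosolic HSP70, at 43.9 ± 5.45 in place 13. Dnaja1 was higher in plain CPM, with a control mean of 248 against 131 CPM. Its merged exons span 8629 bases, against 2975 for Dnaja2, so their order depends on the length used. In plain CPM, 20 members reached 100 CPM in controls and 13 were under 5 CPM, most of these DNAJC genes.

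**Figure D1:**
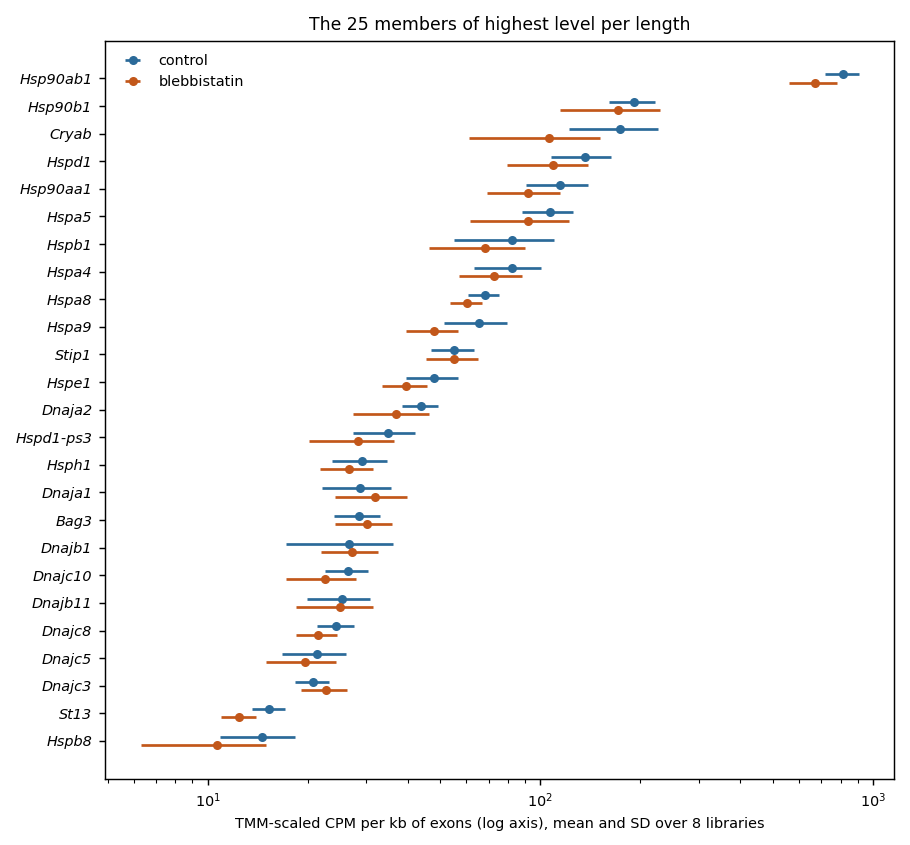
The 25 members of highest level per length, as TMM-scaled CPM per kilobase of exons on a log axis, with points and bars for the mean and SD over 8 control (blue) and 8 blebbistatin (orange) libraries. Hsp90ab1 stands alone at the top (812 ± 93.6 in controls), with the ER gene Hsp90b1 next (191 ± 30.4).

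Between blebbistatin and control explants, 0 of the 70 members passed the test, where 95 of 15675 genes did (0.606%), 40 of them higher and 55 lower. The test was edgeR's quasi-likelihood test with Benjamini-Hochberg adjustment over all genes tested and a threshold of 0.05. By DESeq2, 1 of the 67 members with an adjusted p passed, Hsf2, and 3.20% of genes did. By limma voom 0 passed, and 0.721% of genes did. At an unadjusted p under 0.05 in edgeR there were 10 members (14.3%), close to the 12.2% of all genes. Of these, 7 were lower and 3 higher, where 5.98% of all genes were lower and 6.21% higher at that level.

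The members' estimates lay somewhat below those of all genes. Their median log2 fold change, blebbistatin minus control, was −0.15 against 0.035 for all genes tested, and the same −0.15 with the mitochondrial genes left out of the fit. The estimate was negative for 43 of 70 members (61.4%), against 45.9% of all genes. Among genes of at least 20 control CPM it was negative for 35 of 45 members (77.8%, median −0.18) and for 56.1% of 6203 genes (median −0.037). At that level 7 of the 45 members had an unadjusted p under 0.05, and 16.7% of the genes did. No member had groups that did not overlap, against 0.242% of genes. For 56 of 70 members the 95% interval of the fold change lay within 2-fold either way, against 61.0% of genes, so a change of that size lay outside the interval for most members. The others were mostly of low count.

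**Figure D2:**
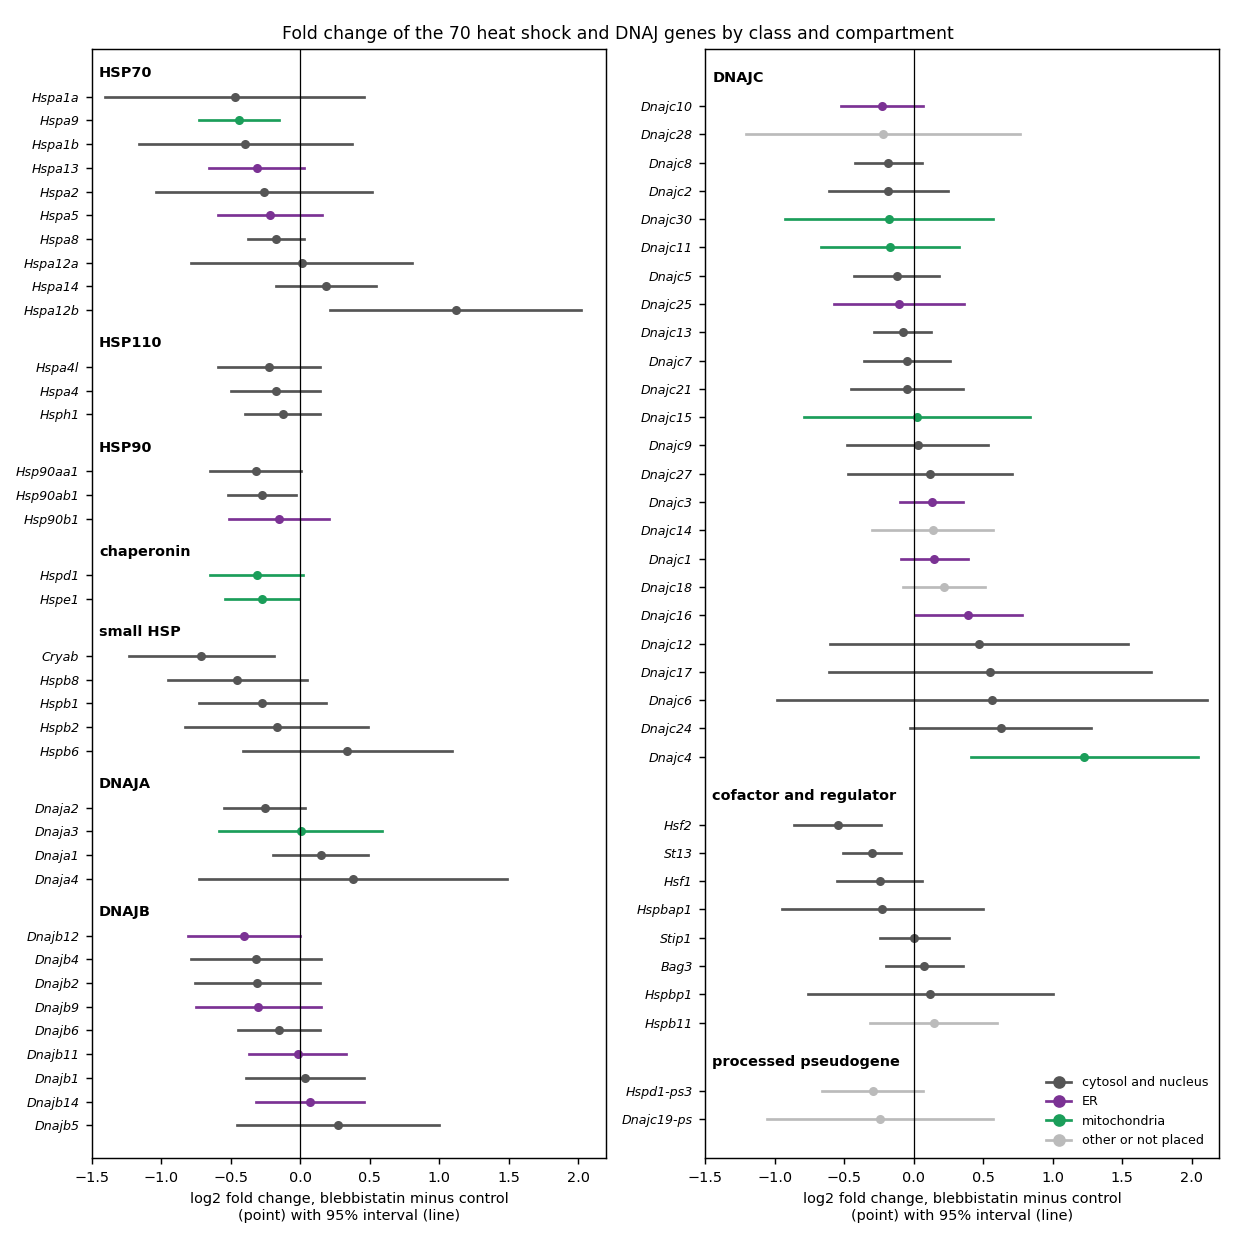
Log2 fold change, blebbistatin minus control, of the 70 members, with points for the estimate and lines for the 95% interval, ordered by class and coloured by compartment (grey cytosol and nucleus, purple ER, green mitochondria, light grey not placed). Most points lie a little left of 0 among the HSP70, HSP110, HSP90, chaperonin and small heat shock protein genes, and the 24 DNAJC genes lie on both sides.

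In each class 0 members passed. The median log2 fold change was −0.24 over 10 HSP70 genes (7 negative), −0.18 over 3 HSP110 genes (3 negative), −0.28 over 3 HSP90 genes (3 negative), −0.30 over the 2 chaperonin genes (2 negative) and −0.27 over 5 small heat shock protein genes (4 negative). Among the cochaperones the medians were 0.074 over 4 DNAJA genes (1 negative), −0.15 over 9 DNAJB genes (6 negative) and 0.027 over 24 DNAJC genes (11 negative). The 8 genes placed here as cofactors and regulators had a median of −0.11 (4 negative). They include Hspb11 (0.14), which became a member through its symbol. The differences between classes were not tested. Single libraries moved some of the medians. That of HSP70 was −0.14 without blebbistatin 6, that of the small heat shock proteins −0.14 without control 1, and that of the cofactors −0.26 without blebbistatin 1, −0.036 without blebbistatin 8 and −0.043 without control 7. With 1 library left out, the DNAJA median ran from −0.041 (blebbistatin 8) to 0.16 and the DNAJC median from −0.049 (blebbistatin 3) to 0.089, so neither has a settled sign.

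By compartment, the medians lay between −0.17 and −0.13, and differences between compartments were not tested. The median was −0.13 over 12 ER genes (8 negative, 2 at an unadjusted p under 0.05), −0.17 over 8 mitochondrial genes (5 negative, 3 at that level) and −0.14 over 44 genes of the cytosol and nucleus (27 negative, 5 at that level). The ER median ran from −0.21 without blebbistatin 2 and −0.20 without control 3 to −0.080, −0.077 and −0.055 without control 7, control 5 and blebbistatin 6, and the mitochondrial median from −0.29 without blebbistatin 2 to −0.11 without control 1. The other 6 members were not placed in a compartment.

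Of the transcription factors, Hsf2 had the smallest p of all members. It encodes heat shock factor 2, which can pair with HSF1 and acts in development as well as in stress (ENSMUSG00000019878, GRCm38 chromosome 10, 57486385 to 57513135). Its level ran from 16.7 to 31.3 CPM with blebbistatin (median 19.0) and from 24.4 to 34.8 CPM in controls (median 29.7). In 7 of 8 blebbistatin libraries it lay below the lowest control, and the exception was blebbistatin 1, with the 31.3 CPM. The log2 fold change was −0.55 (SE 0.15), which did not pass in edgeR (adjusted p = 0.0991). It passed with DESeq2 (−0.55, adjusted p = 0.0202) and in edgeR without blebbistatin 1 (−0.67, adjusted p = 0.0286), and across the alternatives its adjusted p lay between 0.0202 and 0.265.

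Hsf1, for the main factor of the heat shock response, was at 21.7 to 46.2 CPM with blebbistatin (median 34.0) and 28.6 to 48.2 CPM in controls (median 40.3). The groups overlapped in 6 of 8 treated libraries, and the log2 fold change was −0.25 (SE 0.15, adjusted p = 0.538 in edgeR).

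The heat-inducible genes that HSF1 is known to raise were not higher with blebbistatin beyond their spread. Hspa1a ran from 0.804 to 5.35 CPM with blebbistatin (median 1.32) and from 1.69 to 6.30 CPM in controls (median 3.34), and Hspa1b from 0.993 to 4.23 (median 2.73) and from 1.41 to 6.25 (median 3.49). These genes are near-identical copies, so the split of reads between them is uncertain. Their summed counts, 38 to 638 per library, gave a log2 fold change of −0.43 (SE 0.32, 95% interval −1.10 to 0.24, adjusted p = 0.641 in edgeR), an interval that leaves out a rise of 2-fold. Of the 8 blebbistatin libraries 5 lay below the lowest control for Hspa1a and 2 for Hspa1b.

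Dnajb1, for the inducible HSP40 that serves HSPA1A and HSPA8, was at 64.9 to 116 CPM with blebbistatin (median 85.6) and 33.0 to 121 CPM in controls (median 82.6). All 8 treated libraries lay within the control range, and the log2 fold change was 0.033 (SE 0.20, adjusted p = 0.965 in edgeR), with a negative sign in several alternatives. Hsph1, for the HSP110 that releases nucleotide from HSP70, was at 149 to 267 CPM (median 192) and 151 to 283 CPM (median 214). Bag3, for the HSP70 partner that hands damaged cytoskeletal proteins to autophagy, was at 58.5 to 97.2 CPM (median 74.7) and 58.4 to 90.6 CPM (median 72.0). Outside the control range lay 1 treated library for Hsph1 and 2 for Bag3, and the log2 fold changes were −0.13 (SE 0.13, adjusted p = 0.744) and 0.076 (SE 0.13, adjusted p = 0.856).

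**Figure D3:**
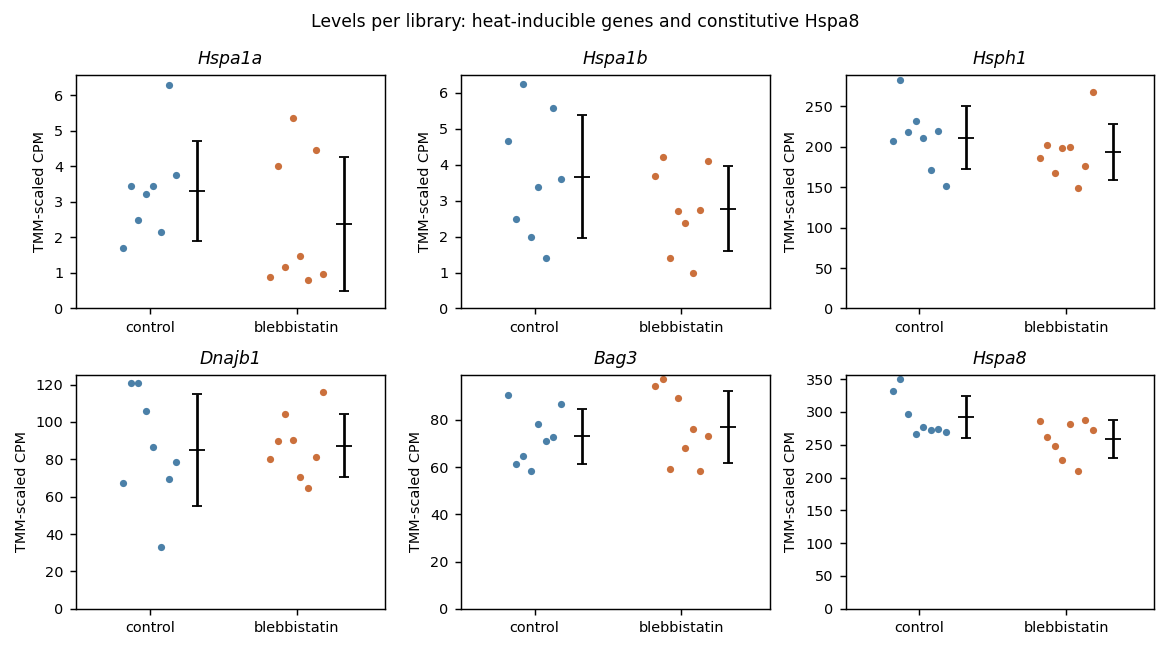
TMM-scaled CPM per library of the heat-inducible genes Hspa1a, Hspa1b, Hsph1, Dnajb1 and Bag3 and of constitutive Hspa8, with a point for each of 8 control (blue) and 8 blebbistatin (orange) explants and a black mark and bar for the mean and SD. The groups overlap in each of the 6 plots, and Hspa1a and Hspa1b stay at or below 6.30 CPM in all 16 libraries.

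A wider list of 21 genes known as HSF1 targets, of which many are members, had a median log2 fold change of −0.27, with 16 negative, 0 called and 4 at an unadjusted p under 0.05, all 4 lower. The 4 include the members Cryab and Hsp90ab1. Negative were 76.2% of the list, 45.9% of all genes and 56.1% of genes at 20 control CPM or more. The unadjusted p was under 0.05 in 19.0%, 12.2% and 16.7% of these. Outside the members the list included Fkbp4, for an immunophilin that binds HSP90. Fkbp4 was at 60.6 to 104 CPM with blebbistatin and 82.6 to 158 CPM in controls, and the log2 fold change was −0.47 (SE 0.14, adjusted p = 0.139).

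In the HSP70 class, the mitochondrial member Hspa9 had the smallest p. It encodes mortalin, which pulls imported proteins into the matrix and folds them there. Its level was 158 to 258 CPM with blebbistatin (median 207) and 216 to 369 CPM in controls (median 269). All 8 treated libraries lay below the control median and 5 below the lowest control. Over all genes, 7.15% had all 8 on the same side of the control median, and 3 of 70 members did. The log2 fold change of Hspa9 was −0.44 (SE 0.14, adjusted p = 0.163 in edgeR), and across the alternatives its adjusted p lay between 0.0766 and 0.465.

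Hspa12b, for a distant HSP70 relative known from endothelial cells, was the other member of the class at an unadjusted p under 0.05. It was low in both groups, from 1.99 to 29.9 CPM with blebbistatin (median 9.73) and from 2.93 to 8.56 CPM in controls (median 5.35). In 5 treated libraries it exceeded the highest control, and blebbistatin 8 held the 29.9 CPM. The log2 fold change was 1.12 (SE 0.43, adjusted p = 0.276) and 0.72 without blebbistatin 8 (adjusted p = 0.501). Of 10 endothelial markers 6 were measured, summing to 18.9 to 54.6 CPM with blebbistatin and 32.7 to 89.8 CPM in controls. The part of endothelial cells in the level of Hspa12b was not tested.

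The constitutive cytosolic HSP70 gene Hspa8 was measured with the smallest error of all members. It was at 210 to 288 CPM with blebbistatin (median 267) and 267 to 350 CPM in controls (median 276), with 4 treated libraries below the lowest control. The log2 fold change was −0.17 (SE 0.096, 95% interval −0.37 to 0.03, adjusted p = 0.492 in edgeR). Hspa14, for a ribosome-bound HSP70, was at 14.9 to 19.7 CPM and 9.54 to 20.7 CPM, within the control range in all 8 treated libraries. Hspa2, Hspa12a and Hspa13 had log2 fold changes of −0.26, 0.01 and −0.31, with adjusted p of 0.820, 0.995 and 0.461.

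All 3 HSP90 genes had negative estimates, and the most abundant was the clearest. Hsp90ab1 (ENSMUSG00000023944, chromosome 17, 45567775 to 45573271) was at 1496 to 2373 CPM with blebbistatin (median 2116) and 2241 to 3044 CPM in controls (median 2312). In 6 of 8 treated libraries it lay below the lowest control, and the log2 fold change was −0.28 (SE 0.12, adjusted p = 0.325 in edgeR). Hsp90aa1 was at 255 to 497 CPM (median 362) and 328 to 619 CPM (median 431), with 3 treated libraries below the lowest control (log2 fold change −0.32, SE 0.16, adjusted p = 0.424).

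The genes that pass clients between HSP70 and HSP90 gave unequal estimates. St13, for the HSP70-interacting protein HIP, which steadies the ADP-bound state of HSP70, was at 108 to 154 CPM with blebbistatin (median 130) and 125 to 179 CPM in controls (median 160). All 8 treated libraries lay below the control median (all 8 were on the same side in 7.15% of all genes) and 3 below the lowest control. The log2 fold change was −0.30 (SE 0.10, adjusted p = 0.197 in edgeR). Stip1, for the adaptor HOP, was at 94.6 to 160 CPM (median 109) and 94.3 to 141 CPM (median 114) (log2 fold change 0.0051, SE 0.12, adjusted p = 0.991) whose sign turned in some alternatives. The difference between these genes was not tested.

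Among 22 tested cochaperones outside the family, 15 had a negative estimate, 0 were called and 3 had an unadjusted p under 0.05, with a median of −0.064. Besides Fkbp4, Tomm70a, for the mitochondrial import receptor that docks HSP70 and HSP90, had a log2 estimate of −0.42 (adjusted p = 0.185), and Cdc37, which brings kinases to HSP90, one of −0.26 (adjusted p = 0.381). Unc45a, for the HSP90 partner that folds nonmuscle myosin, had −0.037 (SE 0.18, adjusted p = 0.952). In the cytosolic TRiC chaperonin, which folds actin and tubulin, and its feeder prefoldin, 12 of 14 genes had a negative estimate, with a median of −0.15, 0 called and 2 at an unadjusted p under 0.05. These were Vbp1, a prefoldin subunit, at −0.44 (adjusted p = 0.327) and Cct4, a TRiC subunit, at −0.24 (adjusted p = 0.409), followed by Cct3 at −0.17 (adjusted p = 0.572). Negative were 68.2% of the outside cochaperones and 85.7% of the TRiC list. For all genes the share was 45.9%, and 56.1% at 20 control CPM or more. The unadjusted p was under 0.05 in 13.6% and 14.3% of the lists, near the 12.2% of all genes and 16.7% at that level.

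Among the small heat shock proteins, Cryab had the largest negative estimate of any member. Alpha B-crystallin is a partner of desmin and actin filaments and abundant in muscle (ENSMUSG00000032060, chromosome 9, 50751325 to 50756636). Its level was 68.1 to 267 CPM with blebbistatin (median 149) and 110 to 384 CPM in controls (median 258). In 7 of 8 treated libraries it lay below the control median and in 3 below the lowest control, control 6. The next lowest control was at 226 CPM, and only blebbistatin 2, with the 267 CPM, lay above it. With 1 library left out, the log2 fold change ran from −0.87 to −0.60. The log2 fold change was −0.71 (SE 0.25, 95% interval −1.23 to −0.19, adjusted p = 0.225 in edgeR), and across the alternatives its adjusted p lay between 0.0386 and 0.460. It passed in 1 of them, with the replicate number as a block (−0.77, adjusted p = 0.0386). Of the markers of muscle cells, 2 of 8 smooth muscle genes were called lower and 1 of 9 cardiomyocyte genes higher. Most of the cardiomyocyte sum was a single gene, Tnnt2, for cardiac troponin T, at 572 to 1035 CPM with blebbistatin and 334 to 851 CPM in controls. With a cardiomyocyte term in the fit the estimate was −0.78 (adjusted p = 0.260), and the part of the smooth muscle genes was not tested.

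The other small heat shock proteins gave no call either. Hspb1, for HSP27, which binds actin, was at 38.5 to 108 CPM with blebbistatin (median 70.7) and 41.3 to 140 CPM in controls (median 89.1). Only 1 treated library was outside the control range, and the log2 fold change was −0.27 (SE 0.22, adjusted p = 0.667). Hspb8, the partner of BAG3, was at 8.56 to 33.5 CPM and 18.7 to 40.8 CPM (−0.45, SE 0.24, adjusted p = 0.463). Hspb6, a small heat shock protein of muscle, had 0.34 (SE 0.36, adjusted p = 0.756) and Hspb2, which lies head to head with Cryab, had −0.17 (SE 0.32, adjusted p = 0.868). Cryab and Hspb2 overlap on opposite strands and the strand setting of the counting is not given, so reads in the overlap cannot be assigned.

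**Figure D4:**
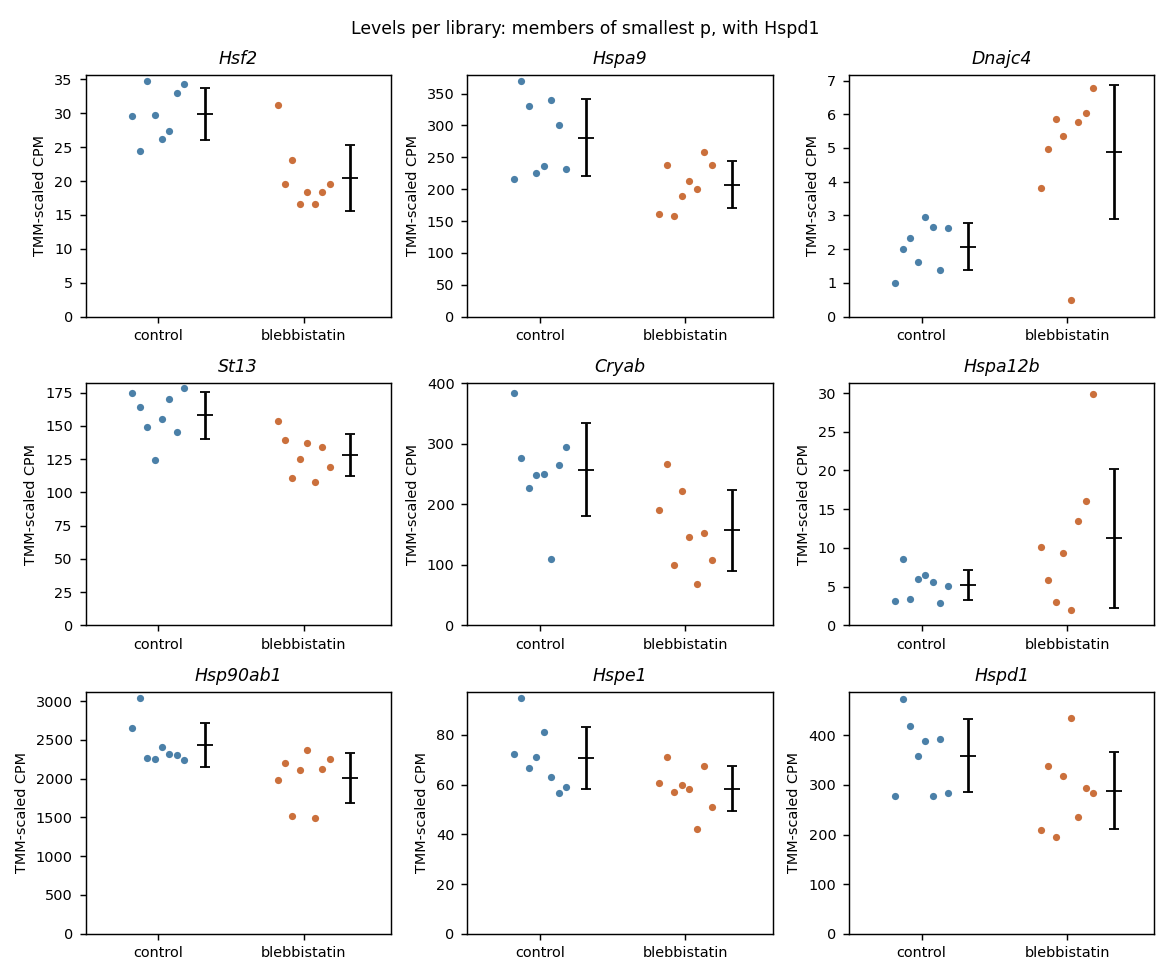
TMM-scaled CPM per library of the 8 members of smallest p and of Hspd1, with a point for each of 8 control (blue) and 8 blebbistatin (orange) explants and a black mark and bar for the mean and SD. In the plot of Hsf2, 7 of 8 treated explants lie under the lowest control at 24.4 CPM, and in that of Dnajc4, 7 of 8 lie over the highest control at 2.94 CPM.

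In mitochondria, neither gene of the chaperonin passed the test. Hspd1 encodes HSP60, whose rings enclose proteins of the matrix, and Hspe1 encodes HSP10, the lid. Hspd1 was at 195 to 435 CPM with blebbistatin (median 289) and 277 to 474 CPM in controls (median 373), and Hspe1 at 42.0 to 71.1 CPM (median 59.0) and 56.5 to 94.8 CPM (median 68.9). Below the lowest control lay 3 treated libraries for Hspd1 and 2 for Hspe1. Log2 fold changes were −0.32 (SE 0.16, adjusted p = 0.447) and −0.28 (SE 0.13, adjusted p = 0.397). These genes also overlap on opposite strands at their shared promoter, and the pseudogene Hspd1-ps3 (−0.30, SE 0.17, adjusted p = 0.527) may share reads with Hspd1.

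Dnajc4, a DNAJ gene whose protein is placed here with the mitochondria, had the largest positive estimate. It was low, at 0.49 to 6.78 CPM with blebbistatin (median 5.56) and 0.99 to 2.94 CPM in controls (median 2.18). In 7 of 8 treated libraries it exceeded the highest control, and in blebbistatin 5 it was below the lowest control. The log2 fold change was 1.23 (SE 0.39, adjusted p = 0.167 in edgeR), and without blebbistatin 5 it was 1.40 and passed (adjusted p = 0.0220). Across the alternatives its adjusted p lay between 0.0220 and 0.489.

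Dnaja3, Dnajc11, Dnajc15 and Dnajc30, the remaining mitochondrial DNAJ genes measured, had log2 fold changes between −0.18 and 0.03, with adjusted p from 0.816 to 0.998. Outside the members, 16 mitochondrial chaperones and proteases had a median of 0.019, with 7 negative, 0 called and 1 at an unadjusted p under 0.05. This was Grpel1, for the nucleotide exchange factor of mortalin, which averaged 14.1 ± 4.04 CPM in the treated and 21.1 ± 3.65 CPM in the control libraries (SD, n = 8 per group), a difference of −0.58 on the log2 scale (SE 0.18, adjusted p = 0.168). Trap1, for the mitochondrial HSP90, had 0.23 (SE 0.20, adjusted p = 0.707), and the protease gene Lonp1 had −0.29 (adjusted p = 0.728).

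Hsp90b1 and Hspa5 had the highest levels of the ER members, and they varied more between blebbistatin explants than between controls. The highest library was 2.62 times the lowest with blebbistatin and 1.77 times in controls for Hspa5. For Hsp90b1 it was 2.82 and 1.55 times, and the difference in spread was not tested. Hspa5 was at 235 to 617 CPM with blebbistatin (median 415) and 336 to 597 CPM in controls (median 436), with 3 treated libraries below the lowest control and 1 above the highest. Hsp90b1, for GRP94, was at 389 to 1099 CPM (median 642) and 663 to 1025 CPM (median 710), with 5 below and 1 above. The log2 fold changes were −0.22 (SE 0.18, adjusted p = 0.674) and −0.15 (SE 0.17, adjusted p = 0.771), neither past the threshold. Both moved with single libraries, to −0.35 and −0.29 without blebbistatin 2 and to −0.14 and −0.067 without blebbistatin 6. Hspa5 was also at −0.14 without blebbistatin 8, and Hsp90b1 at −0.085 without control 5. Dnajc3, for the BiP partner that also restrains the kinase PERK and the third carrier of the ER element above, had 0.13 (SE 0.11, adjusted p = 0.692).

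Of the ER DNAJ genes, which lay on both sides of 0, none passed. Dnajb12, for a membrane DNAJ protein of ER degradation, was at 12.1 to 26.8 CPM with blebbistatin (median 22.2) and 17.3 to 46.2 CPM in controls (median 25.9) (log2 fold change −0.41, SE 0.19, adjusted p = 0.404). Dnajc16 was at 13.7 to 27.8 CPM (median 21.1) and 12.5 to 21.3 CPM (median 16.2) (log2 fold change 0.39, SE 0.19, adjusted p = 0.402). Dnajb9, Dnajb11 and Dnajc10, for soluble partners of BiP, had −0.30, −0.02 and −0.23, with adjusted p of 0.624, 0.975 and 0.552.

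In the cytosol, Dnaja1, for a farnesylated partner of HSPA8, was at 197 to 369 CPM with blebbistatin (median 272) and 150 to 333 CPM in controls (median 248) (log2 fold change 0.15, SE 0.16, adjusted p = 0.773). Dnajc24, for a J protein needed to make diphthamide on elongation factor 2, was at 2.79 to 8.23 CPM (median 5.49) and 1.36 to 6.33 CPM (median 3.45) (log2 fold change 0.63, SE 0.31, adjusted p = 0.433). It overlaps other genes on the opposite strand. The widest intervals belonged to DNAJC genes of low count, such as Dnajc6 at 0.0816 to 9.58 CPM with blebbistatin (0.56, 95% interval −0.98 to 2.11).

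Outside the members, 21 of 24 ER folding and unfolded protein response genes had a negative estimate, with a median of −0.16, 0 called and 3 at an unadjusted p under 0.05, all 3 lower. Negative were 87.5% of the list, 45.9% of all genes and 56.1% of genes at 20 control CPM or more. The unadjusted p was under 0.05 in 12.5%, 12.2% and 16.7% of these, so that share was near the background. Hyou1, for the HSP110 relative of the ER, was at 84.4 to 191 CPM with blebbistatin and 158 to 230 CPM in controls (log2 fold change −0.47, SE 0.14, adjusted p = 0.139). Atf6, for the ER stress sensor, had −0.38 (adjusted p = 0.318), and Pdia6, for a disulfide isomerase, had −0.32 (adjusted p = 0.343).

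Across the 16 libraries, 7 pairs of members that share a complex, a compartment or a locus were compared after subtracting each group's mean log2 CPM. Hspa5 and Hsp90b1, the carriers of the ER element with the highest level, varied together. Their Pearson r was 0.82 (permutation p = 0.0011, adjusted over 7 pairs 0.0076) and Spearman's rho 0.84 (permutation p = 0.00056, adjusted 0.0039). Within the blebbistatin libraries r was 0.86 (exact permutation, adjusted p = 0.0462), while rho was 0.71 and did not pass (adjusted p = 0.268). Within the controls r was 0.66 and rho 0.55, neither past the threshold (exact permutation, adjusted p = 0.269 and 0.545). With the replicate number as a block, r was 0.84 and passed, while rho was 0.79 and did not (exact permutation, adjusted p = 0.0479 and 0.160). Without the 2 libraries farthest from the median of Hspa5, r was 0.76 (permutation, adjusted p = 0.0370), while rho was 0.46 and did not pass (adjusted p = 0.393).

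Hsph1 and Hsp90aa1, both heat-inducible, had r = 0.64 and rho = 0.66 (permutation, adjusted p = 0.0321 and 0.0298). Without the 2 libraries farthest from the median of Hsph1, r was 0.44 (adjusted p = 0.386), so the call rests on those libraries. Hspa9 and Hspd1, which act in turn on imported proteins, had r = 0.56 and rho = 0.59 (permutation, adjusted p = 0.0628 and 0.0479). Without the 2 libraries farthest from the median of Hspa9, r was 0.37 and rho 0.36, neither past the threshold (permutation, adjusted p = 0.386 and 0.393).

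The pairs at a shared promoter had lower values than those above, and the difference between pairs was not tested. Hspd1 and Hspe1 had r = 0.40 and rho = 0.31 (permutation, adjusted p = 0.216 and 0.373), and Cryab and Hspb2 r = 0.29 and rho = 0.26 (permutation, adjusted p = 0.338 and 0.373). Without TMM, Hspd1 and Hspe1 had r = 0.49 and rho = 0.55 (permutation, adjusted p = 0.110 and 0.0623). Hspb2 was low, at 1.70 to 4.22 CPM with blebbistatin and 1.57 to 5.09 CPM in controls. The part of counting noise in its correlation was not tested. Hspa1b and Dnajb1 had r = 0.39 and rho = 0.25 (permutation, adjusted p = 0.216 and 0.373), and the muscle genes Cryab and Hspb6 r = −0.19 and rho = −0.27 (permutation, adjusted p = 0.511 and 0.373).

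Over all 2415 pairs of members the median r was 0.067. Among members of at least 20 control CPM it was 0.14 over all 990 pairs, 0.17 over 55 pairs of ER genes, 0.16 over 351 pairs of genes of the cytosol and nucleus, and 0.38 over the 6 pairs of 4 mitochondrial genes. These values describe libraries that share depth and scaling. Some high values were seen only afterwards and are given without a test. They include Cryab with Hspb1 (r = 0.90), Hspa4 with Hspd1 (0.88), Hsp90aa1 with Hspd1 (0.83), Hsp90b1 with Dnajc10 (0.81) and Hspd1 with its pseudogene Hspd1-ps3 (0.95).

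**Figure D5:**
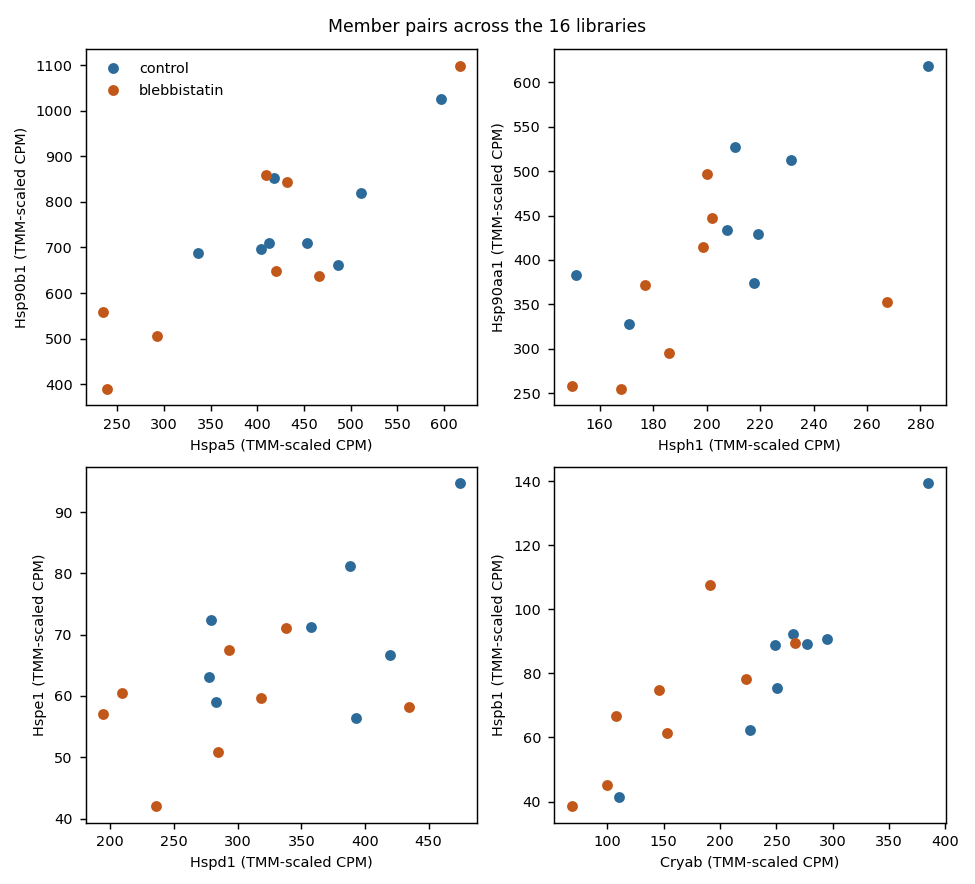
TMM-scaled CPM of pairs of members, a point for each of 8 control (blue) and 8 blebbistatin (orange) libraries on linear axes that do not start at 0. Hspa5 and Hsp90b1 rise together from library to library (r = 0.82 after subtracting group means), as do Cryab and Hspb1 (0.90, chosen afterwards), while Hspd1 and Hspe1 are loose (0.40).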

How the data were processed

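RNA-seq was analysed in 8 blebbistatin and 8 control explants, grouped by the labels. The deposited values are raw counts, made by the authors. The submitters' processing notes list HTSeq 0.6.1p1, edgeR, TopHat2 2.1.0, SAMtools 1.3 and Bowtie2 2.2.6.0, with build mm10 (GRCm38). How each was run, the gene annotation and any strand setting were not given in the sources used here. Each of the 15805 genes in the table exceeded 1 CPM in at least 4 libraries, so genes below that were not analysed here. Gene names had become dates for 21 genes and were blank for 72, and no member was affected.

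Counts were TMM-scaled and filtered with filterByExpr (130 genes removed, 15675 tested), then tested with edgeR 4.0.16 in R 4.3.3 (quasi-likelihood, robust fit, group only) with Benjamini-Hochberg adjustment over all genes tested and a threshold of 0.05. The biological coefficient of variation was 50.1%. Fold changes are log2, blebbistatin minus control, with SE, and 95% intervals use the fit's degrees of freedom. Levels are TMM-scaled CPM. Log2 CPM used a prior count of 2. Levels per kilobase used all exons of a gene in GENCODE M21, merged. Correlations used 100000 permutations within groups, or all 40320 orders of 8 libraries. The script was tested on simulated data.

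The members, lists and pairs were chosen with earlier results of these data known. Classes, compartments and lists come from textbook roles. Named in full are any member called, the 12 members of smallest p and 20 set members, then up to 3 genes of smallest p of each partner list with Unc45a, Trap1 and Hyou1. Other members are named where their class is described. Alternatives were DESeq2 1.42.0, limma 3.58.1 (voom), RLE factors, other filters, each library left out, a replicate block, mitochondrial genes left out and terms for Y-linked, macrophage and cardiomyocyte genes. A fit without blebbistatin 1 and 8, where fewest genes were detected, was chosen after seeing the data. Promoters are from RefSeq (GRCm38.p6).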

Additional observations from a re-analysis of the deposited data

Results flagged for a closer look

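In 50 groups of 8 libraries tested for a library far from the others on the log2 CPM scale, 3 held one, where chance alone gives about 1 in 20. Control 6 had the lowest Cryab of its group, 110 CPM, with the nearest control at 226 CPM. The same library had the lowest Dnajb1, 33.0 CPM, with the nearest control at 67.5 CPM. Blebbistatin 5 had the lowest Dnajc4, 0.49 CPM, with the nearest treated library at 3.83 CPM.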

How the results depend on the processing

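Members called numbered 1 with DESeq2 (Hsf2), 1 under the replicate block (Cryab, −0.77, adjusted p = 0.0386), 1 without blebbistatin 1 and 8 (Hsf2, −0.68, adjusted p = 0.0404), and 0 to 1 with each library left out (Hsf2 without blebbistatin 1, Dnajc4 without blebbistatin 5). Over all genes 95 became 424 with DESeq2, 170 at 5 CPM or more in 8 libraries, 177 under the block, 21 with a Y-linked term, 233 with a macrophage term and 44 to 206 with a library left out. The lowest of these, 44, came without control 7 and the highest, 206, without control 6, with 180 without blebbistatin 5, 49, 52, 54, 58, 60 and 62 without blebbistatin 6, control 4, 8, 2, 1 and blebbistatin 8.

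Dnajb1 turned negative with the Y-linked term (−0.045), without blebbistatin 1 and 8 (−0.038) and with some libraries left out (−0.089 to 0.12). Stip1 did so with a cardiomyocyte term (−0.0062), without blebbistatin 1 and 8 (−0.11) and with some libraries left out (−0.082 to 0.051). Under the block, r was −0.26 for Hspd1 and Hspe1, −0.056 for Hspa1b and Dnajb1, 0.57 for Hsph1 and Hsp90aa1 and 0.81 for Hspa9 and Hspd1 (adjusted p = 0.0479), the last also past the threshold without TMM (0.65). Hsph1 and Hsp90aa1 fell short of the threshold in blebbistatin (0.52) and control libraries alone (0.78) and without the 2 farthest libraries (0.44), as did Hspa5 and Hsp90b1 in controls alone (0.66). The causes were not tested. The DNAJB median was −0.011 with the cardiomyocyte term. Those of DNAJA and DNAJC changed sign in several alternatives, as did the mitochondrial partner list (−0.053 to 0.073 with a library left out) and, without blebbistatin 1 and 8, the outside cochaperones (0.014). Hspa5 and Hsp90b1 were then at −0.078 and −0.054. The samples were not treated as paired. Same-number correlations were all above 0, from 0.0039 to 0.28, with 4 of 8 over 0.1. Of the 16 libraries, 5 correlated best with their own number, out of 8 candidates each. Pairing was thus neither established nor excluded, and the counts under the block are given above. At 20.2 counts per CPM in the shallowest library, members under 5 CPM have wide intervals.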
